A study of Mus musculus with 6 samples.

Results

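The genes described here are the IκB family of NF-κB inhibitors, some of which can also assist transcription, and genes that limit NF-κB signalling. They were read in mouse pre-B cells collected 2 hours after 1 Gy of γ-rays. They are 10 genes of 9664 tested: the IκB family members Nfkbia, Nfkbib, Nfkbie, Nfkbid, Nfkbiz and Bcl3, the ubiquitin-editing enzyme gene Tnfaip3 (A20) with its partners Tnip1 and Tnip2, and the deubiquitinase gene Cyld. They were chosen by name, through the gene symbols of the array's annotation, and are read by 22 of the 45037 probe sets on the array, where a probe set is a group of short probes that gives 1 signal for 1 transcript or a few. No probe set lists 1 of these genes beside other genes, and 21 of the 22 reached the minimum signal of 100 on at least 1 array and were tested.

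The irradiated group (1 Gy) and the mock-irradiated group (0 Gy) each hold 3 arrays, 1 from each of 3 WT cell lines that were derived independently. All lines are pre-B cells transformed by v-abl and carry an Eμ-Bcl2 transgene, which the immunoglobulin heavy chain enhancer drives in lymphocytes and whose product counters apoptosis. Both groups were kept for 48 hours in 3 μM STI-571 (imatinib), which blocks the Abl kinase and holds the cells in G1, and the dose was given at 0.72 Gy per minute. The replicate number names the line, so the 2 arrays with the same number are the irradiated and the mock-irradiated cells of 1 line. Without the line in the fit, a p-value sets the change against the spread of signals between lines. With the line fitted as a block, it sets the change against how much that change differs between lines. Transformed, drug-arrested lines that overexpress Bcl2 stand in for normal pre-B cells here. In RNA from a whole culture, more cells that express a gene and more RNA per cell cannot be told apart.

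NF-κB dimers wait in the cytoplasm, bound to an IκB protein that hides their nuclear localisation signal. When the IKK complex phosphorylates the classical IκBs, they are ubiquitinated and degraded, and the freed dimers enter the nucleus and switch on genes, among them those of their own inhibitors. DNA breaks reach this pathway through the kinase ATM and the IKK subunit NEMO. In B cells the pathway serves survival, maturation and the response to antigen and CD40, and A20 and CYLD limit it by removing or editing the ubiquitin chains on which the upstream complexes assemble.

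The promoters of these genes are shown first, because κB sites are the element through which NF-κB is known to act on its own inhibitors. Windows from 250 bases before to 50 bases after each annotated start (RefSeq, GRCm38.p6) were found for 9 of the 10 genes, all but Nfkbiz, and searched on both strands for the κB consensus, with overlapping matches counted once. It was matched in 7 of the 9 genes (7 of their 12 windows), and in 5.14% of all 27025 genes with a window (4.51% of all 32851 windows). A match is a description of the sequence and not a bound site. The windows of the 4 genes that rose by their brightest probe set follow with that of Nfkbia, added after its values were seen as the best studied feedback gene of the pathway, and capitals mark the matches. Each reads 5′ to 3′ along the gene.
Tnfaip3 (first of 2 starts, chr10:19015361-19015660, minus strand): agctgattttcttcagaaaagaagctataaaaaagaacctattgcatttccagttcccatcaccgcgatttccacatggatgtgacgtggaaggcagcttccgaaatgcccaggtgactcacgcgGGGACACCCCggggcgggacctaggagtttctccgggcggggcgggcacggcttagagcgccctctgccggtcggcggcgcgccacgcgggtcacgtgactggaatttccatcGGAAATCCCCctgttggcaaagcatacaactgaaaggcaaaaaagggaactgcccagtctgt
Nfkbid (second of 3 starts, chr7:30422156-30422455, plus strand): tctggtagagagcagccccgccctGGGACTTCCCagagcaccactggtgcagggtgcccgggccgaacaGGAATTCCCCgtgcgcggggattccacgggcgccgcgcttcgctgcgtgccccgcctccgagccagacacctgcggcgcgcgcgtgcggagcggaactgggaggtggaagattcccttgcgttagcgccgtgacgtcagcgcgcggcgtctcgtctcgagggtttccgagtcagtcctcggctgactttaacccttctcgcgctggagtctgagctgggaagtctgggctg
Nfkbie (chr17:45555450-45555749, plus strand): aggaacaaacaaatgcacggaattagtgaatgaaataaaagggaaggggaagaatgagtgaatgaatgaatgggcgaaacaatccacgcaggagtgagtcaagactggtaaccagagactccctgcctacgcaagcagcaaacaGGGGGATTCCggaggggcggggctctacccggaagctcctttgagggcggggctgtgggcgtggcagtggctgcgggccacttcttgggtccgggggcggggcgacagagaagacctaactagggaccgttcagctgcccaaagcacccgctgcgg
Nfkbib (chr7:28766595-28766894, minus strand): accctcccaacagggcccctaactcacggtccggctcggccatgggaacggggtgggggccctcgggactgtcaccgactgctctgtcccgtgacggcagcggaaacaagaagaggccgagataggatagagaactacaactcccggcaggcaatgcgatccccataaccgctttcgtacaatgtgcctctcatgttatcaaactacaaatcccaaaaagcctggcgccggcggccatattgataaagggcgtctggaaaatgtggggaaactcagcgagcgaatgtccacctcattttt
Nfkbia (chr12:55492598-55492897, minus strand): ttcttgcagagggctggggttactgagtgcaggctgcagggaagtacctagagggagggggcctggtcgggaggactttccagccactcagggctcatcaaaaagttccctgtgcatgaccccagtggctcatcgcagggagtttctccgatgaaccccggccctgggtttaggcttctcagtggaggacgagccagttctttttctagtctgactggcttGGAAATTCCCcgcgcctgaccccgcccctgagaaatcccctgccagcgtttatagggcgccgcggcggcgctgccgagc
Tnfaip3 held 2 matches, GGAAATCCCC beginning 12 bases before the start and GGGACACCCC beginning 125 bases before it, and its second start held none. Nfkbid held 2 matches at its second start, GGAATTCCCC 181 bases and GGGACTTCCC 226 bases before it, and none at its other starts. Nfkbie held GGGGGATTCC 106 bases before its start and Nfkbia GGAAATTCCC 29 bases before its start, whereas the window of Nfkbib held none. Cyld, whose signals did not pass the test, held GGAAAGTCCC 155 bases before its start. Tnip1 held GGGGAATTCCCC 58 bases before its start, Bcl3 held GGGAAGTCCC at position 3 from its start, and Tnip2 held none.

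Most of these genes had higher mean signals in irradiated cells, while 4 of the 10 were called higher by their brightest probe set and none lower. Signals were compared on the log2 scale with limma, and an adjusted p under 0.05 over all 21762 tested probe sets counted as a change. Of the 21 tested probe sets, 10 rose and 0 fell, where 1.93% of all tested probe sets rose and 2.55% fell (4.48% in either direction). Among the 10, the dimmer probe set of Tnfaip3 (1450829_at) reached 100 only on irradiated arrays. So did the dim probe set of Nfkbib (1446718_at), which was not called. Both were tested only because they were higher after irradiation, so the filter itself favours their rise. No member probe set was lower at an unadjusted p under 0.05 or by the test of the study's methods, while 15 were higher at an unadjusted p under 0.05 (9.28% of all) and 15 were called by that test of the methods at its own threshold of p and fold (13.1% of all, either direction). Read by the brightest probe set of each gene, 4 of 10 genes rose, Nfkbid, Tnfaip3, Nfkbie and Nfkbib, where 2.12% of tested genes rose and 3.24% fell. The median log2 change of the 10 genes was 1.42, beside -0.11 for all tested genes. The irradiated signals lay above all mock signals in 15 of the 21 probe sets (12.8% of all tested probe sets) and below them in 1 (17.1%).

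Fitted with the cell line as a block, which sets each irradiated array against the mock array of its own line, 15 probe sets and 8 genes were higher and 0 lower, where 6.78% of probe sets and 6.63% of tested genes were higher and 11.5% of probe sets and 14.7% of genes lower. The 4 genes added by the block were Nfkbia, Nfkbiz, Bcl3 and Tnip1. The calls changed when an array was left out. Without the irradiated array of line 1, 2 or 3, limma called 1, 0 and 1 of the 21 probe sets higher (1, 0 and 1 genes), and without the mock array of line 1, 2 or 3 it called 5, 0 and 5 (3, 0 and 3 genes), while 15 to 16 were higher and 0 to 1 lower at an unadjusted p under 0.05. The brightest probe set of Tnfaip3 was called in 4 of these 6 fits, those of Nfkbid and Nfkbie in 2 each and that of Nfkbib in 0. Over all 21762 tested probe sets, the same fits called between 0 and 61 higher. In these fits 3748 to 4608 of them had an unadjusted p under 0.05 in either direction. Without the filter on dim probe sets, which raises the number tested to 45037, limma called 0 of the 22, with 15 at an unadjusted p under 0.05. Of all 45037 probe sets, that fit called 1 higher and 0 lower, and 5391 had an unadjusted p under 0.05 in either direction.

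The classical IκBs hold NF-κB in the cytoplasm and are degraded on stimulation, and among them Nfkbie had the largest change. Nfkbie encodes IκBε, which binds dimers of RelA and c-Rel and acts with some delay after IκBα. Its brightest probe set (1458299_s_at) had signals of 23604, 19772 and 21575 in irradiated lines 1, 2 and 3, against 5734, 4906 and 5617 in the same lines after mock irradiation. The lowest irradiated signal was more than 3 times the highest mock signal. Nfkbie rose by 2.00 on the log2 scale (standard error, SE, 0.14, limma adjusted p = 0.00957), and the changes within the 3 lines, 2.04, 2.01 and 1.94, were almost the same. The second probe set (1431843_a_at) rose by 2.59 (SE 0.19), with 12537, 10519 and 11372 in irradiated lines against 2136, 1524 and 2114 in mock lines. The per-line changes of the 2 probe sets did not overlap, while both rose.

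Nfkbia encodes IκBα, the inhibitor that is degraded and resynthesised fastest, and it is the textbook feedback gene of the pathway. It is read by 5 probe sets, and all 5 were higher in 3 of 3 lines, with no overlap between the groups. Its brightest probe set (1420088_at) had 32846, 24938 and 28429 in irradiated lines 1, 2 and 3, against 18079, 19180 and 17169 in mock lines. The log2 change of 0.66 (SE 0.16) did not pass the test (limma adjusted p = 0.0731) and passed with the line as a block (adjusted p = 0.0457). Another probe set (1448306_at) had 22198, 19276 and 20266.0 in irradiated lines against 9201, 9788 and 9827 in mock lines, and rose by 1.10 (SE 0.13, adjusted p = 0.0208). Probe set 1449731_s_at also rose by 0.97 (SE 0.16, adjusted p = 0.0367). The remaining pair (1438157_s_at and 1420089_at) had log2 changes of 0.73 and 0.98 that did not pass (adjusted p of 0.0569 and 0.101 from limma). The first of them passed with the block (adjusted p = 0.0318) and the second did not (0.0507).

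The 5 probe sets of Nfkbia shared an order of lines. The change was largest in line 1 in 5 of 5 probe sets, at 0.86 or more, and smallest in line 2 in 5 of 5, between 0.38 and 0.98. They read the same RNA samples and are not independent of each other. The mean of the 5 gave a log2 change of 0.89 (limma adjusted p = 0.0289 over all genes averaged in this way).

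Nfkbib encodes IκBβ, which is degraded more slowly than IκBα. Its probe set 1421266_s_at had 1611, 1721 and 1173 in irradiated lines 1, 2 and 3, against 529, 723 and 645 in mock lines, so that each irradiated signal exceeded each mock signal. It rose by 1.24 on the log2 scale (SE 0.21, limma adjusted p = 0.0383). The call held in 7 of 17 alternative settings. Among those in which it ended were scaling to a common median (limma adjusted p = 0.0521) and averaging both its probe sets (adjusted p = 0.0651). It also ended when any 1 array was left out (limma adjusted p of 0.0722 to 0.133). The other probe set (1446718_at) was dim, at 46.2 to 124 in irradiated and 34.7 to 90.8 in mock lines, and its log2 change of 0.61 (SE 0.51) did not pass (adjusted p = 0.540).

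The nuclear members of the family do not hold NF-κB in the cytoplasm but bind its p50 or p52 subunits at promoters, where they restrain or assist transcription depending on the gene. Nfkbid encodes IκBNS, which mouse knockouts link to the development of B cell subsets and antibody responses. It has 1 probe set (1436074_at), with 9831, 10969 and 13838 in irradiated lines 1, 2 and 3, against 1126, 1500.1 and 1688 in mock lines. Nfkbid rose 8.06-fold, a log2 change of 3.01 (SE 0.22, limma adjusted p = 0.0096), the largest of the 10 genes read by their brightest probe sets. The 3 lines changed by 3.13, 2.87 and 3.04. Among all tested probe sets, this one stood at rank 49 of 21762 by its log2 change.

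Nfkbiz encodes IκBζ, a coactivator of secondary NF-κB target genes in macrophages and lymphocytes. Its brightest probe set (1417483_at) had 2450, 3515 and 5617 in irradiated lines 1, 2 and 3, against 846, 1389 and 1501 in mock lines. Lines with a higher mock signal were also those with a higher irradiated signal. The spread between lines was wide, and the log2 change of 1.59 (SE 0.37) did not pass without the block (adjusted p = 0.0726) and passed with it (adjusted p = 0.0128). The other probe sets rose without the block, 1457404_at by 1.68 (adjusted p = 0.0361) and 1448728_a_at by 1.92 (limma adjusted p = 0.0202). In all 3 probe sets the change was largest in line 3, between 1.90 and 2.08, whereas that of Nfkbia was largest in line 1. That difference between the genes was not tested, as each line has 1 array per dose.

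Bcl3 encodes a nuclear IκB that works with p50 and p52 homodimers, and the human gene was found at a chromosome translocation in chronic lymphocytic leukaemia. Its probe set (1418133_at) had 234, 1469 and 255 in irradiated lines 1, 2 and 3, against 36.5, 314 and 68.2 in mock lines. Line 2 had more Bcl3 RNA than both others at each dose, and its mock signal exceeded the irradiated signals of lines 1 and 3, so that the groups overlapped. The 3 lines changed in the same direction, by 2.68, 2.23 and 1.90 on the log2 scale. The log2 change of 2.27 had an SE of 1.04 without the block (limma adjusted p = 0.265) and 0.19 with it (adjusted p = 0.0111). The mock signals of lines 1 and 3 lay below 100, and with signals under 100 set to 100 the log2 change was 1.60, and 1.23, 2.23 and 1.35 within lines 1, 2 and 3.

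**Figure D1:**
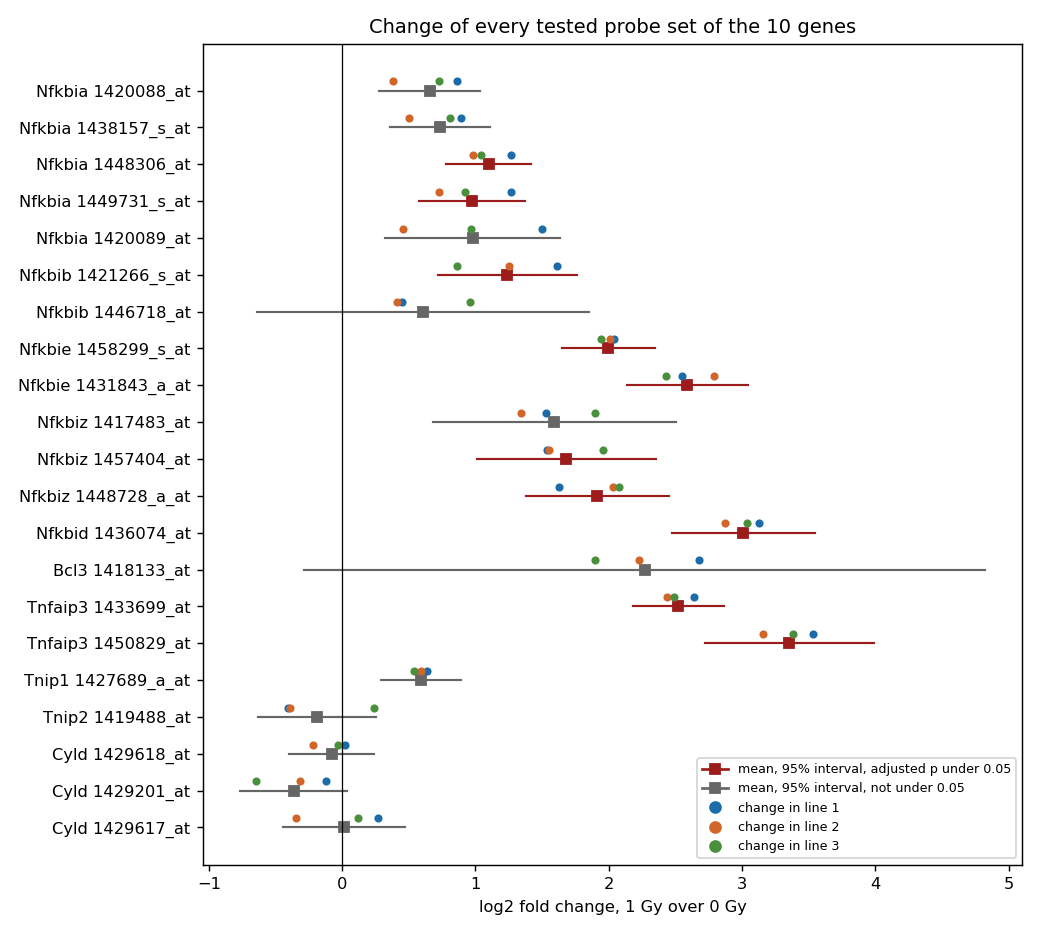
Log2 fold change (horizontal axis, 1 Gy over 0 Gy) of the 21 tested probe sets (vertical axis), with the 95% interval of the fit without a block as a bar and the change within each of the 3 lines as dots. Intervals of 10 probe sets, in red, belong to an adjusted p under 0.05, and the dots of Bcl3 (1.90 to 2.68) lie inside a bar that crosses 0.

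Tnfaip3 encodes A20, a ubiquitin-editing enzyme that shuts off signalling upstream of IKK and is a tumour suppressor in human B cell lymphomas. Its brightest probe set (1433699_at) had 9773, 8069 and 8251 in irradiated lines 1, 2 and 3, against 1566, 1486 and 1471 in mock lines. The mock signals were close together and far below every irradiated signal. Tnfaip3 rose by 2.52 on the log2 scale (SE 0.14, limma adjusted p = 0.00827). The dimmer probe set (1450829_at) had 945, 660 and 567 in irradiated lines against 81.8, 73.7 and 54.6 in mock lines. It rose by 3.36 (SE 0.26, adjusted p = 0.00985), and by 2.82 with signals under 100 set to 100, since all mock signals lay below 100. In both probe sets line 1 changed most.

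Both partners of A20 are read by 1 probe set each. Tnip1 encodes ABIN-1, which binds ubiquitin and brings A20 to its substrates. It had 1333, 1278 and 1203 in irradiated lines 1, 2 and 3, against 857, 848 and 829 in mock lines, a small difference that was almost the same in each line (0.64, 0.59 and 0.54 on the log2 scale). The log2 change of 0.59 (SE 0.12) did not pass (limma adjusted p = 0.0572), and passed with the block (adjusted p = 0.0335). Tnip2, which encodes ABIN-2, a partner also of the kinase TPL2 (Map3k8), had 232, 236 and 325 in irradiated lines against 309, 309.6 and 275 in mock lines. The groups overlapped and the lines went both ways, with a log2 change of -0.19 (95% interval -0.63 to 0.26, adjusted p = 0.602).

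Cyld encodes a deubiquitinase that removes the chains on which IKK is activated and acts in cells before any stimulus. Its brightest probe set (1429618_at) had 2835, 2465 and 2846 in irradiated lines 1, 2 and 3, against 2795, 2876 and 2904 in mock lines. The log2 change was -0.08, with a 95% interval of -0.40 to 0.24 (limma adjusted p = 0.781). A second probe set (1429201_at) was lower in all 3 lines, with 686, 722 and 657 in irradiated lines against 748, 900 and 1028 in mock lines, and did not pass (log2 change -0.36, adjusted p = 0.256, and 0.157 with the block). The third (1429617_at) gave a log2 change of 0.01 (95% interval -0.45 to 0.47). The fourth (1445213_at) stayed below 100 on all 6 arrays and was not tested.

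Set in order by the brightest probe set, the log2 changes were 3.01 for Nfkbid, 2.52 for Tnfaip3, 2.27 for Bcl3, 2.00 for Nfkbie, 1.59 for Nfkbiz, 1.24 for Nfkbib, 0.66 for Nfkbia, 0.59 for Tnip1, -0.08 for Cyld and -0.19 for Tnip2. The per-line changes of Nfkbid (2.87 to 3.13) lay above those of Tnfaip3 (2.44 to 2.64). As deposited, Bcl3 (1.90 to 2.68) overlapped both its neighbours, Nfkbiz (1.34 to 1.90) overlapped Nfkbib (0.86 to 1.61), Nfkbia (0.38 to 0.86) overlapped Tnip1 (0.54 to 0.64), and Cyld overlapped Tnip2. The order is that of single probe sets, and the place of Bcl3 rests on mock signals below 100. With signals under 100 set to 100 Bcl3 stood at 1.60, below Nfkbie and beside Nfkbiz, with per-line changes of 1.23, 2.23 and 1.35 that did not overlap those of Tnfaip3. The second probe set of Tnfaip3 stood above Nfkbid at 3.36 and below it, at 2.82, with that minimum. Nfkbid and Nfkbiz had larger changes than Nfkbia in each line and by every probe set, a difference that was not tested.

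**Figure D2:**
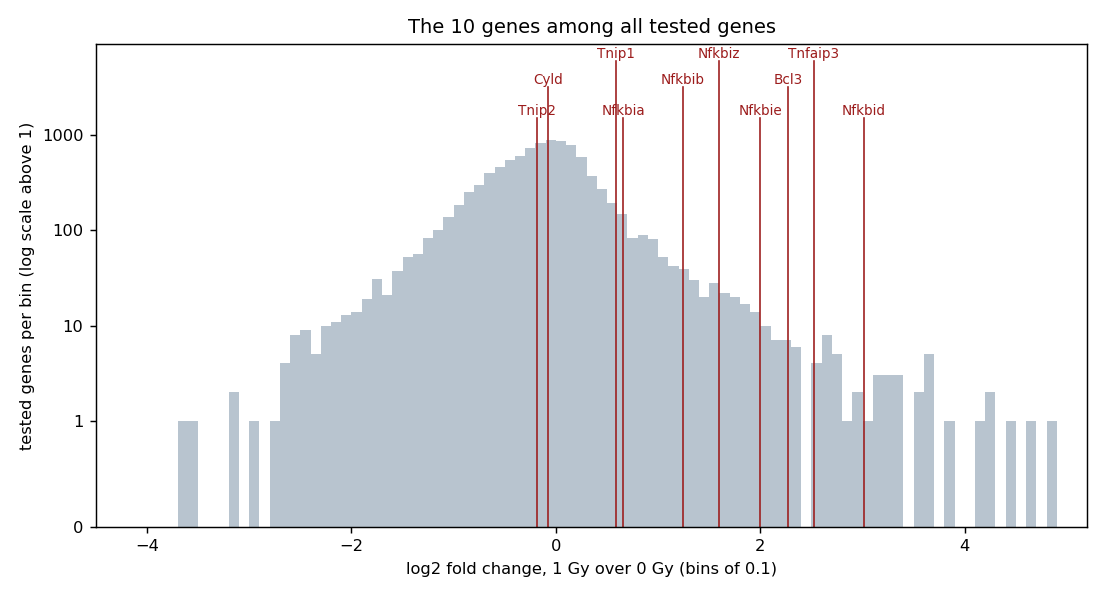
Number of tested genes (vertical axis, log scale above 1) by log2 change (horizontal axis, 1 Gy over 0 Gy, bins of 0.1), with the 10 genes marked by vertical lines. Nfkbid at 3.01 and Tnfaip3 at 2.52 stand in the thin right tail of the 9664 genes, and Cyld at -0.08 and Tnip2 at -0.19 within its peak.

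The other genes of the pathway were read by their brightest probe sets, from lists drawn up by role. Of 5 genes of the subunits of NF-κB itself, 4 were measured, without Nfkb1, the gene of p105 and p50. All 4 rose: Relb by 1.80, Nfkb2 by 1.36, Rela by 1.28 and Rel by 1.18 on the log2 scale (adjusted p of 0.0107 for Relb and 0.0400 for Rel from limma). Rela, the subunit that IκBα chiefly holds, had 8332 ± 878 (SD, n = 3 lines) in irradiated and 3424 ± 67.4 in mock cells. The machinery that activates the pathway mostly did not pass the test. Of 13 listed genes of the IKK complex and its upstream kinases, 10 were measured, and Chuk, the gene of IKKα, was not among them. Of the 10, 1 rose and 9 did not pass (median 0.08), and with the block 3 were higher and 1 lower, beside 6.63% and 14.7% of all tested genes. The 1 that rose was Map3k8, a kinase that the p105 precursor of p50 holds inactive (log2 change 3.54, adjusted p = 0.0304). With the block it was joined by Ikbke and Map3k7 (limma adjusted p of 0.0235 and 0.0365). The 1 lower with the block was Ikbkg, the gene of NEMO. Its log2 change was -0.53 (limma adjusted p = 0.0414 with the block and 0.0715 without it). Of 14 measured genes of linear ubiquitin enzymes and receptor adaptors (17 listed), Traf1 rose, Traf5 fell and 12 did not pass (median 0.00). With the block 3 were higher and 1 lower, against the same shares of all genes. Traf5, an adaptor of TNF family receptors, had 214 ± 16.9 in irradiated and 928 ± 234 in mock cells, a log2 change of -2.09 (limma adjusted p = 0.0183). Traf1, a related adaptor that NF-κB is known to switch on, had a log2 change of 3.61 (adjusted p = 0.0276), and 1.82 with signals under 100 set to 100. All its mock signals lay below 100, so it entered the test only through irradiated arrays.

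A list of other regulators of NF-κB signalling, drawn up as genes that restrain it, was also read. It held Btrc and Fbxw11 too, genes of the ligase that ubiquitinates the IκBs, which does not restrain the pathway. Btrc was 1 of the 2 genes lower with the block (limma adjusted p = 0.0407), beside Irak3 (0.0323). Of 21 measured, 1 rose and 20 did not pass, with 1 higher and 2 lower with the block (14.7% of all tested genes were lower in that fit), and the median log2 change was -0.07. The 1 that rose was Zc3h12a, which encodes the RNase Regnase-1 that degrades inflammatory mRNAs. It had 1107 ± 313 (SD, n = 3 lines) in irradiated and 269 ± 61.3 in mock cells, a log2 change of 2.03 (SE 0.28, limma adjusted p = 0.0261). Of 20 target genes outside the pathway that reached 100, 9 rose and 11 did not pass, with a median of 1.498, and with the block 15 were higher. Among those that rose, the log2 change was 4.63 for Cd83, a surface protein of activated B cells, 4.26 for Ier3, 3.63 for Stx11 and 3.22 for Icam1, an adhesion molecule. Mock signals of the first 3 reached below 100, and with signals under 100 set to 100 they stood at 4.10, 2.55 and 3.26, so that Ier3 came below Cd69 (2.73), an activation antigen of lymphocytes. Ier3 and Stx11, among the 9 that rose, reached 100 only on irradiated arrays, as did Ebi3 and Ccl3, which did not pass. Such genes were tested because they were higher after irradiation, which favours rises in the count and median of this list. The lists were chosen with results of these data known, and a difference between lists was not tested.

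**Figure D3:**
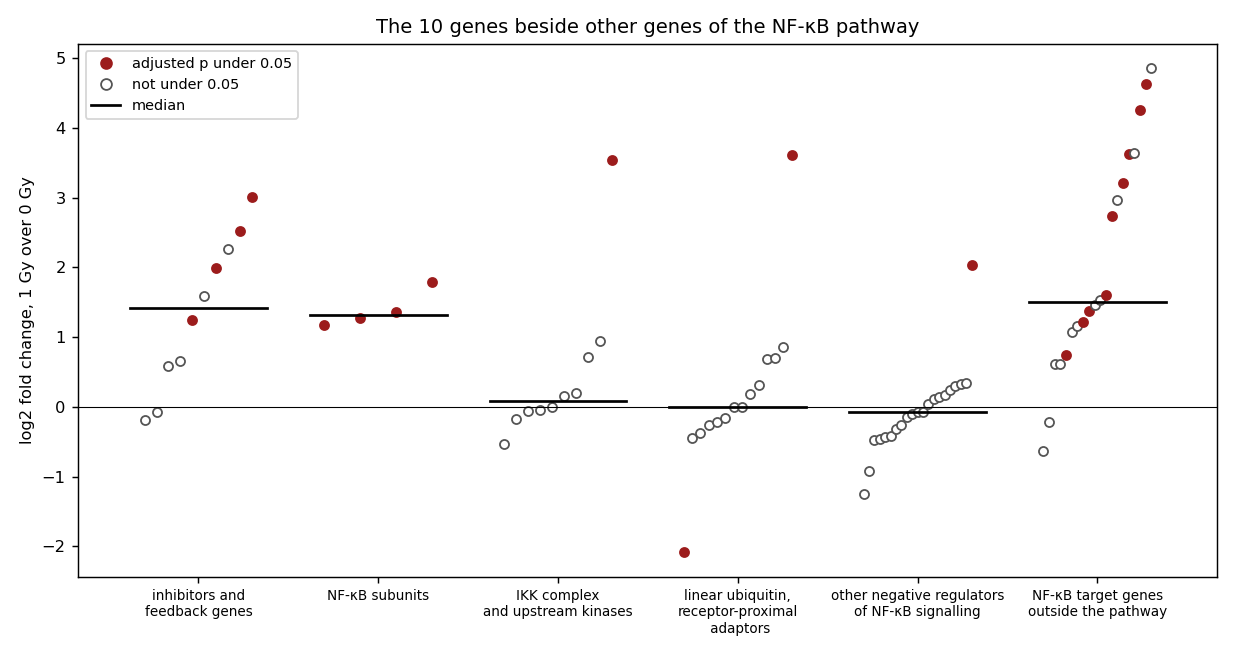
Log2 fold change (vertical axis, 1 Gy over 0 Gy) of the brightest probe set of each gene, for the 10 inhibitor and feedback genes and for 5 lists of other NF-κB pathway genes (horizontal axis), with the median of each list as a bar. Filled points have an adjusted p under 0.05. The medians are 1.42, 1.32, 0.08, 0.00, -0.07 and 1.498 from left to right.

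The genes with the pattern nearest to the leading members across the 6 arrays were found by the root mean square difference of log2 values centred on each gene's own mean, among 8588 genes with mean signals of 100 or above in both groups. For Tnfaip3 they were Dusp16 (0.12), Slc35b2 (0.17) and Ccrl2 (0.27). Dusp16, a phosphatase of JNK and p38 kinases, had 7670.0 ± 632 (SD, n = 3 lines) in irradiated and 1319 ± 136 in mock cells, with per-line changes of 2.50, 2.58 and 2.55. For Nfkbie they were Hivep1 (0.11), whose zinc finger protein binds κB-like sequences, Relb (0.14) and Slc35b2 (0.16). For Nfkbid they were Cd69 (0.20), Icam1 (0.27) and Atp10d (0.32). The 6 arrays come from 3 lines and share the dose contrast, and each of the named genes rose as well.

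The labelled cell type and the quality of the RNA were checked on all 6 arrays. Of 8 pre-B markers, 7 were measured and limma called 0 of them with or without the block. Without the block, 0 had an unadjusted p under 0.05. With the block, Pax5, higher in all 3 lines, had a limma adjusted p of 0.0522, and Cd79a, lower in all 3, had 0.0687. Summed signals of the markers were 73318 to 102560 in irradiated and 79896 to 91676 in mock lines. No measured marker of T cells (5), erythroid cells (3) or stromal cells (5) reached 100 on any array. Of 9 myeloid markers, 7 stayed below 100 on all arrays, Lyz2, Csf1r, Cd14, Mpo and S100a8 among them, and the summed signals were 412 to 670 in irradiated and 374 to 668 in mock lines. Itgam, 1 of the other 2, had 262, 342 and 235 in irradiated lines against 163, 162 and 130 in mock lines (adjusted p = 0.068 without and 0.0227 with the block, limma). Fcgr3, the other, had 26.7, 194 and 91.9 in irradiated lines against 99.7, 326 and 117 in mock lines, lower in all 3 (adjusted p = 0.53 without and 0.101 with the block, limma). Of 4 plasma cell markers, Sdc1 and Prdm1 reached 100, and Sdc1 was lower with the block (limma adjusted p = 0.0461). Prdm1 had 937, 1314 and 513 in irradiated lines against 596, 1502 and 295 in mock lines (adjusted p = 0.259 with the block, limma). Beta-actin, read at both ends of its transcript, had a 3′ over 5′ ratio of 1.32 ± 0.057 (SD, n = 3) on irradiated and 1.45 ± 0.051 on mock arrays (p = 0.1 by a two-sided exact permutation test, and no smaller p is possible with 3 arrays a group). The same ratio of Gapdh was 0.793 ± 0.0077 on irradiated and 0.82 ± 0.071 on mock arrays (p = 0.9 by the same exact test). The part of these values in the changes above was not tested.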

How the data were processed

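RNA of irradiated and mock-irradiated cells was hybridised to 6 Affymetrix whole-genome mouse arrays, 1 per line and dose. The deposited values are linear signal intensities, 1 per probe set and array. The submitters' processing notes name MAS5, and the values have a trimmed mean of 500 on each array (2% left out at each end), a scaling the authors made before deposit. The study's methods state RMA with quantile normalization for its own tests, and those values were not used here. Median signals were 51.6 to 59.4 and 41.7 to 43.8% of probe sets reached 100. The number of arrays limits the precision, and signals below 100 limit the fold changes that rest on them.

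Signals under 1 were set to 1, 64 control probe sets were left out, and 21762 probe sets that reached 100 on 1 array or more entered the test as log2 intensities in R 4.3.3 with limma 3.58.1 (lmFit, eBayes, dose only), with Benjamini-Hochberg adjustment. Of 45037 probe sets, the platform annotation gave 1 symbol for 34945, several for 932 and none listed for 9160. Each gene was read by the brightest of its probe sets with 1 symbol. Scripts were tested on simulated data. The replicate number names the cell line, as the series' design text states, and deviations from the group means correlated at 0.668 to 0.781 for the 3 same-numbered pairs and at -0.495 to -0.0525 for the 6 others. The line was therefore also fitted as a block.

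The genes named were all members, up to 4 called genes per pathway list with the largest changes, and the 3 genes nearest in pattern to each of the 3 called members with the largest changes, besides markers. Some list genes outside this rule, not called without the block, were also named: Btrc, Fbxw11, Irak3, Ikbkg, Ikbke, Map3k7, Ebi3 and Ccl3. Members and lists were chosen with earlier results of these data known. Alternatives were the block, other filters, quantile and median scaling, log2 of the signal plus 16, a floor of 100, a trend in the variance prior, the methods' test, probe set means and leaving out each array. The number of value columns of no sample was 0.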

Additional observations from a re-analysis of the deposited data

How the results depend on the processing

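No log2 fold change of the 10 genes changed sign under any of 17 alternatives. Over the 10 genes and these alternatives, 129 calls stayed on the same side of the threshold, 18 were gained and 23 were lost. Tnfaip3 was called in 14 of the 17, Nfkbid and Nfkbie in 12 each, Tnip1 in 8, Nfkbib in 7, Nfkbia in 5, Nfkbiz in 4, Bcl3 in 1, and Tnip2 and Cyld in 0. With the line as a replicate block, 8 of 10 member genes were called higher against 4 without it. Of 69 other pathway genes tested, 26 were higher and 4 lower with the block, against 16 and 1 without it. Of all tested genes, 6.63% were higher and 14.7% lower with the block, against 2.12% and 3.24% without it. Without the filter on dim probe sets, limma called 0 member probe sets, 0 member genes, and 0 other pathway genes higher and 0 lower, with 45037 probe sets in the adjustment. Of all these probe sets, 1 was called higher and 0 lower. With signals under 100 set to 100, 2 other pathway genes were lower, where 841 of all 21762 tested probe sets were lower. A trend in the variance prior gave 7 member genes higher and 3 other pathway genes lower, and the methods' test at its own threshold of p and 1.5-fold gave 7 and 2. Of all 21762 tested probe sets, the fit with the trend called 690 higher and 825 lower, and the methods' test 1121 and 1729. After Benjamini-Hochberg adjustment the methods' test gave 6 other pathway genes higher, where 172 of all 21762 tested probe sets were higher and 180 lower. Leaving out 1 array gave 0 to 5 member probe sets, 0 to 3 member genes, 0 to 5 other pathway genes higher and 0 to 1 lower. Over all 21762 tested probe sets, 0 to 61 were higher and 0 to 33 lower in those fits. Such fits have fewer arrays, and otherwise the cause was not tested. Quantile normalization and scaling to a common median moved the median log2 fold change of all tested probe sets to -0.01, against -0.06 as deposited. Signals near 100 limit Bcl3, the second probe set of Nfkbib and the dimmer one of Tnfaip3.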
